A study of Arabidopsis thaliana with 6 samples.

Results

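Native Arabidopsis genes for DNA topoisomerases and their relatives, TOPII, BIN4, SPO11-2 and ATSPO11-1, were followed in seedlings that overexpress a rice subunit of topoisomerase VI. They were taken as every probe set of the array annotated to exactly 1 of these genes, which gave 4 probe sets, 1 for each gene, of 22746 that are not controls. The study measured total RNA of light-grown Arabidopsis thaliana seedlings, 10 days old and kept on agar medium with sucrose under constant illumination, on 6 biotin-labelled 1-colour Affymetrix arrays. There were 3 groups of 2 biological replicates each: wild type, transgenic seedlings overexpressing the rice OsTOP6A3 cDNA (labelled OEA3L5), and transgenic seedlings overexpressing the rice OsTOP6B cDNA (labelled OETOP6B). The ecotype Columbia is given for all arrays except wild-type replicate 1, for which no ecotype is given. The labels name neither the promoter driving the transgenes nor a vector control, and they give 1 name for the arrays of each overexpressor, so an effect of the subunit and an effect of the line used cannot be told apart. No probe set used here measures the rice transgenes.

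Topoisomerases release the twisting and interlocking of DNA that replication and transcription create. Topoisomerase VI is built of A and B subunits and, in plants, is known from mutants to be needed for endoreduplication, in which cells copy their DNA without dividing and become large, as in leaf hairs and hypocotyls. BIN4 encodes a plant protein that belongs to that complex. SPO11-2 and ATSPO11-1 encode relatives of the A subunit that cut DNA at the start of meiotic recombination, and are known for their role in reproductive cells rather than in seedlings. TOPII encodes topoisomerase II, a separate enzyme that untangles sister chromosomes and is most used in dividing cells.

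The files gave 1 intensity per probe set and array with no detection call, so whether a weak probe set stood above background cannot be judged. Levels below are log2(intensity + 16) after quantile normalization, a scale on which an intensity of 0 becomes 4, and a log2 difference on it understates the change of weak genes. A probe set was tested with limma when its mean over the 6 arrays reached the 25th percentile, 4.97 on this scale. It was called when its p, adjusted by the Benjamini-Hochberg method over all 17059 tested probe sets, was under 0.05. TOPII, BIN4 and SPO11-2 were tested, and ATSPO11-1 fell under the limit. The mean of TOPII lay at the 57.9th percentile of the array, that of BIN4 at the 34.8th, that of SPO11-2 at the 26.2nd and that of ATSPO11-1 at the 21.8th. The median intensity of the arrays ran from 66.2 to 103.5, and OsTOP6B replicate 2, which had the lowest, stood apart among the overexpressor arrays. Across probe sets it correlated with the others at Pearson's r of 0.984 to 0.985, whereas OsTOP6B replicate 1 correlated with both OsTOP6A3 arrays at 0.990. Seedling tissue was represented by leaf and root markers, with RCA (rubisco activase) at 12.99 and PYK10 (a root beta-glucosidase) at 12.74, whereas the 3 meiotic, 3 floral and 3 seed markers looked for had none named in the annotation used, which leaves 8730 probe sets without a gene.

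TOPII was lower in OsTOP6B overexpressors than in wild type, and was the only call among the 3 tested genes in any comparison. The deposited TOPII intensity was 111.7 and 131.5 on the wild-type arrays, 149.2 and 136.6 on the OsTOP6A3 arrays, and 120.3 and 82.8 on the OsTOP6B arrays. On that scale the OsTOP6A3 arrays were highest, but all columns of the overexpressors except OsTOP6B replicate 2 also had a higher median intensity than wild type. After normalization TOPII read 7.21 and 7.39 in wild type, 7.16 and 7.11 with OsTOP6A3, and 6.80 and 6.87 with OsTOP6B. The groups then stood in the order wild type, OsTOP6A3 and OsTOP6B without overlap, at 7.30 ± 0.13, 7.14 ± 0.04 and 6.84 ± 0.05 (SD, n = 2 arrays each). Arrays did not overlap, in either direction, in 61% of all tested probe sets between OsTOP6A3 and wild type. The share was 57.3% between OsTOP6B and wild type and 38.3% between the lines.

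The OsTOP6B difference of TOPII was -0.47 ± 0.13 (standard error) on the log2 scale, 1.38-fold lower than wild type, with a 95% interval from -0.76 to -0.17 and a limma adjusted p of 0.047. In this comparison 14.9% of all tested probe sets were called, 6.98% as lower, and by p TOPII ranked 2428th among 2540 calls, close to the threshold. In a sample of whole seedlings, fewer cells of a type and less RNA per cell cannot be told apart. With OsTOP6A3 the difference was -0.17 ± 0.13, with an interval from -0.46 to 0.13 and a limma adjusted p of 0.458, and it did not pass. In the OsTOP6A3 comparison 9.68% of all probe sets were called.

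Between the overexpressors TOPII differed by 0.30 ± 0.13, higher with OsTOP6A3, with an interval from 0.01 to 0.60. Its unadjusted p in limma was 0.0461 and its adjusted p 0.677, so the lines are not shown to differ in TOPII. No probe set of the array passed in this contrast in limma (0 of 17059, or 0%), although 1235 had an unadjusted p under 0.05. The mean of both lines minus wild type was -0.32 ± 0.11 for TOPII, with a limma adjusted p of 0.0889, in a contrast where 17.1% of all tested probe sets were called.

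**Figure D1:**
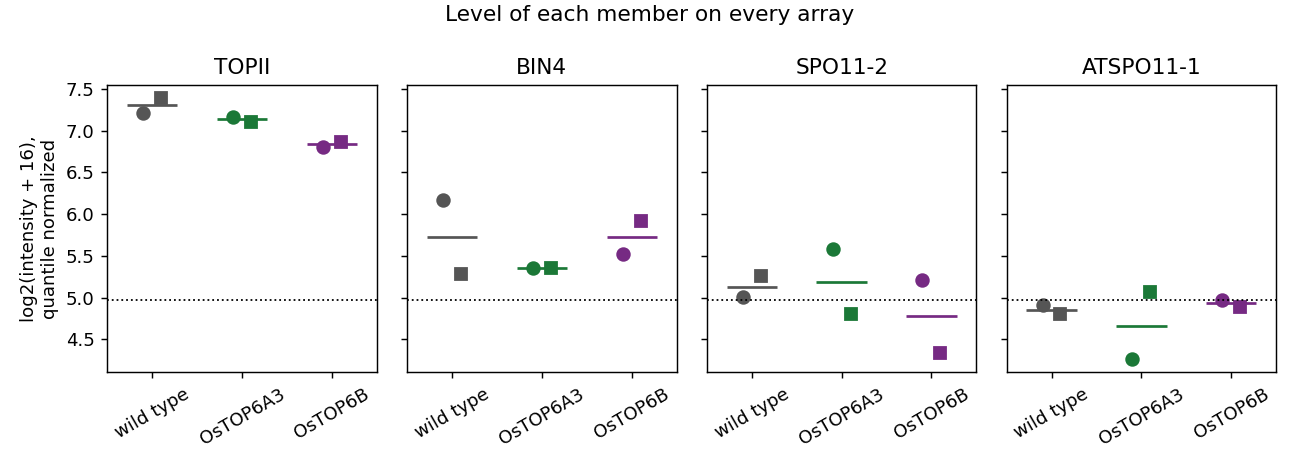
Normalized level, log2(intensity + 16), of each gene on the 6 arrays, with circles for replicate 1, squares for replicate 2, horizontal bars for group means and a dotted line at the testing limit of 4.97. TOPII has group means that fall from wild type to OsTOP6A3 to OsTOP6B, with only the OsTOP6B difference from wild type called. Its wild-type replicates lie 0.18 apart, beside a difference of -0.17 between OsTOP6A3 and wild type. Replicates lie up to 0.88 apart in BIN4, 0.88 in SPO11-2 and 0.81 in ATSPO11-1. Heights are not comparable between genes.

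The TOPII call depended on the processing. Of 14 alternative settings 2 kept it, a pseudocount of 64 (adjusted p = 0.0348 in limma) and a variance that follows intensity (adjusted p = 0.036), and 12 did not. The direction stayed negative in all 14, from -0.56 without wild-type replicate 1 to -0.24 on the deposited scale. Leaving out any single array ended the call, at a limma adjusted p between 0.0816 (OsTOP6B replicate 2 left out) and 0.204 (wild-type replicate 2 left out).

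On the deposited scale the median probe set differed by 0.18 between OsTOP6B and wild type and by 0.34 between OsTOP6A3 and wild type. Relative to that median TOPII stood at -0.43 with OsTOP6B, beside -0.45 after quantile normalization, and at -0.13 with OsTOP6A3, beside -0.15. As deposited, with no such centring, its OsTOP6A3 difference was 0.21, a turn of direction. Of the OsTOP6B calls 53.1% were higher than wild type after normalization and 84.5% on the deposited scale.

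**Figure D2:**
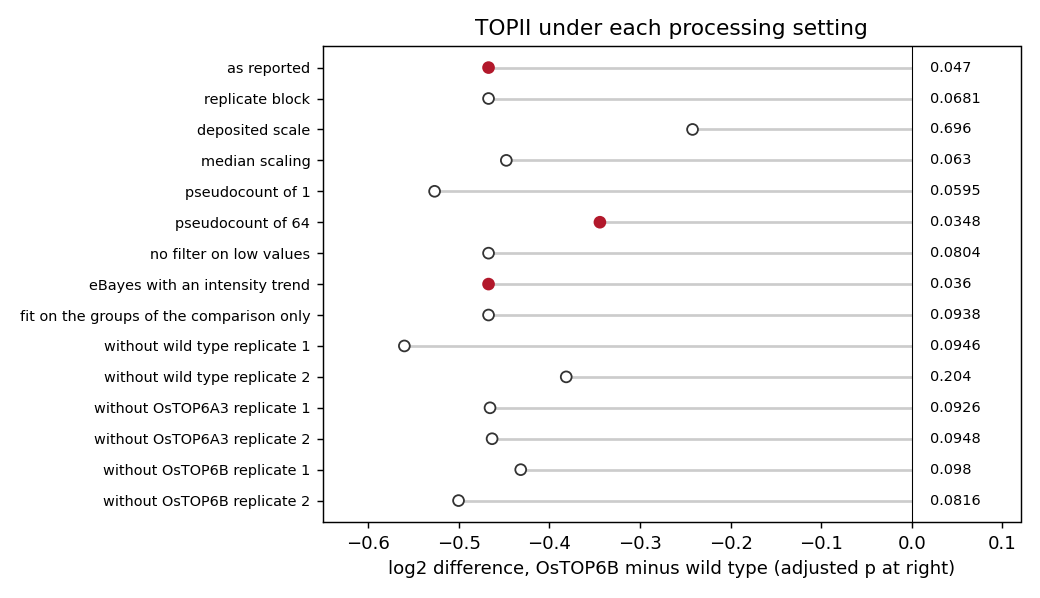
Log2 difference of TOPII between OsTOP6B overexpressors and wild type as reported and under 14 alternative settings, with the limma adjusted p printed at the right. Filled points have an adjusted p under 0.05; the value stays below 0 throughout, and the filled points are those as reported, with a pseudocount of 64 and with an intensity trend.

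BIN4, the topoisomerase VI complex gene, gave no call in any comparison. The deposited values of BIN4 were 47.5 and 19.5 in wild type, 29 and 27.2 with OsTOP6A3, and 38 and 36.1 with OsTOP6B. The wild-type arrays therefore enclosed all 4 overexpressor arrays. Normalized levels were 6.16 and 5.29 in wild type, 5.36 and 5.36 with OsTOP6A3, and 5.53 and 5.92 with OsTOP6B. The gap of 0.88 between the wild-type arrays was as large as or larger than that of 99.2% of tested probe sets, whose median gap was 0.14, while the OsTOP6A3 arrays differed by 0.0028.

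The BIN4 difference from wild type was -0.37 ± 0.27 with OsTOP6A3 (95% interval -1.0 to 0.27, limma adjusted p = 0.444) and -0.0020 ± 0.27 with OsTOP6B (-0.64 to 0.63, adjusted p = 0.997). These intervals reach from 0.500 times to 1.20 times the wild-type level with OsTOP6A3 and from 0.644 times to 1.55 times with OsTOP6B. A moderate fall thus lies within both intervals, and a moderate rise within that of OsTOP6B. The result rested on which wild-type array was used. Without wild-type replicate 1 the differences were 0.074 with OsTOP6A3 and 0.45 with OsTOP6B, and without wild-type replicate 2 they were -0.81 and -0.44. None of these passed, the lowest limma adjusted p being 0.0764 for OsTOP6A3 and 0.239 for OsTOP6B.

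Wild-type replicate 1, the array with the high BIN4 reading, is the one with no ecotype in its label; the part of this in the BIN4 gap was not tested. Between the lines BIN4 was lower with OsTOP6A3 by a log2 difference of -0.36 ± 0.27, and the arrays of the lines did not overlap. The limma adjusted p was 0.783, and 38.3% of all tested probe sets showed such a separation between the lines.

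SPO11-2 is a meiotic relative of the A subunit. Its deposited intensities were 14.4 and 18.7 in wild type, 37.1 and 12.8 with OsTOP6A3, and 26.2 and 3.5 with OsTOP6B. As deposited, replicate 1 of each overexpressor was above both wild-type arrays and replicate 2 was below both. Normalized levels were 5.01 and 5.25 in wild type, 5.58 and 4.80 with OsTOP6A3, and 5.22 and 4.34 with OsTOP6B, so the groups overlapped there too. The replicate gaps of 0.78 with OsTOP6A3 and 0.88 with OsTOP6B were at least as large as those of 99.2% and 98.8% of probe sets.

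SPO11-2 differed from wild type by 0.06 ± 0.33 with OsTOP6A3 (95% interval -0.70 to 0.83, limma adjusted p = 0.926) and by -0.35 ± 0.33 with OsTOP6B (-1.12 to 0.41, adjusted p = 0.509). Leaving out 1 array turned either value. The OsTOP6A3 value became -0.32 without OsTOP6A3 replicate 1, where the gene fell under the testing limit, and 0.45 without OsTOP6A3 replicate 2, and the OsTOP6B value became 0.086 without OsTOP6B replicate 2 and -0.77 without OsTOP6B replicate 1. Between the lines SPO11-2 differed by 0.42 ± 0.33, higher with OsTOP6A3, with a limma adjusted p of 0.789.

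ATSPO11-1, the other meiotic relative, fell under the testing limit and was not tested. The deposited values of ATSPO11-1 were 12.7 and 10 in wild type, 3.5 and 19 with OsTOP6A3, and 18.5 and 11.8 with OsTOP6B. The highest and the lowest reading were thus both from OsTOP6A3 arrays, and the groups overlapped. Its normalized group means were 4.86 ± 0.08 in wild type, 4.66 ± 0.57 with OsTOP6A3 and 4.93 ± 0.05 with OsTOP6B (SD, n = 2 arrays each), which gave log2 differences from wild type of -0.19 and 0.07. When weak probe sets were kept in the fit, the limma adjusted p was 0.730 for OsTOP6A3 and 0.904 for OsTOP6B. ATSPO11-1 read lowest on OsTOP6A3 replicate 1, the array on which SPO11-2 read highest.

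**Figure D3:**
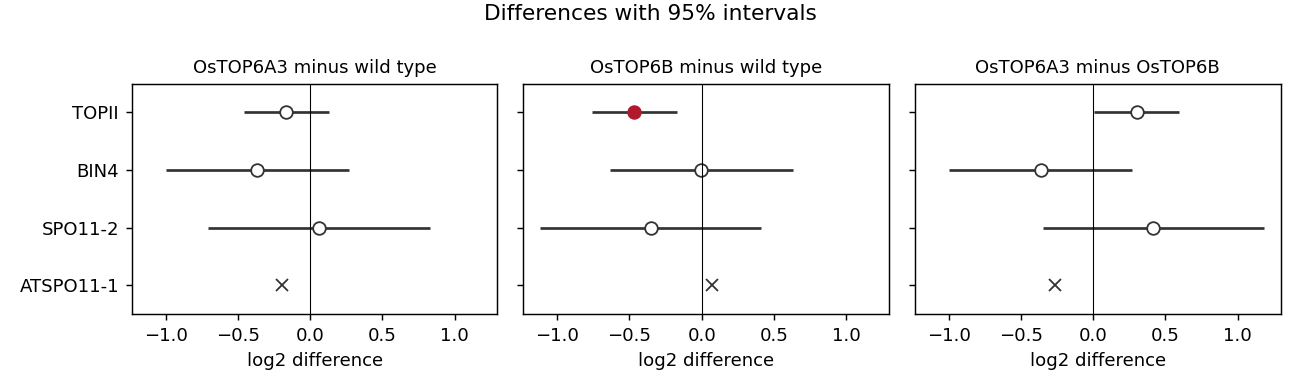
Log2 difference of each gene in the 3 comparisons between groups, with limma's 95% interval, which carries no adjustment for multiple testing. The filled point is the only call, TOPII in OsTOP6B against wild type; crosses mark ATSPO11-1, which was not tested, and the intervals of BIN4 and SPO11-2 are wider than those of TOPII.

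Read as counts, 1 of 3 tested genes was called with OsTOP6B, where 14.9% of all tested probe sets were, and 0 of 3 with OsTOP6A3, where 9.68% were. TOPII was also the only one of the 3 whose arrays did not overlap with wild type, in a comparison where 57.3% of all tested probe sets did not overlap for OsTOP6B and 61% for OsTOP6A3. The median difference of all tested probe sets was -0.02 in each comparison with wild type. The comparisons with wild type share the same wild-type arrays. The 3' to 5' signal ratio of the ubiquitin control, a measure of RNA integrity and labelling, was 3.24 and 2.98 in wild type, 2.35 and 2.26 with OsTOP6A3, and 2.13 and 2.25 with OsTOP6B. The wild-type arrays thus differed from the overexpressors in this ratio. The GAPDH ratio was 1.49 and 1.61 in wild type and 1.01 to 1.43 in the overexpressors, while the actin ratio, at 9.97 to 12.8, overlapped between the groups. Among 3 root markers the expansin genes EXPA7 and EXPA18 were called higher with OsTOP6B, at 1.73 and 0.81, and PYK10 was not, at 0.15. Among 3 leaf markers the light-harvesting gene LHCB4.2 was called higher with OsTOP6B, at 0.79, and RCA and PSAE-1 were not. EXPA7 and LHCB4.2 were called higher with OsTOP6A3 as well, at 1.23 and 0.72. There EXPA18 (0.15), PYK10, RCA and PSAE-1 were not called. The part of these ratios and markers in the TOPII difference was not tested.

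The genes whose pattern over the 6 arrays was most like that of a member were found by the root mean square log2 difference after centring each profile on its mean. Among 9435 tested probe sets with exactly 1 gene, those nearest to TOPII were AT1G79990, at 0.039, and AT3G10840, at 0.043, where the median probe set lay at 0.26. Nearest to BIN4 were AT5G08570 at 0.079 and AT4G28230 at 0.10, against a median of 0.38. Nearest to SPO11-2 were AT3G48600 at 0.096 and AT1G16820 at 0.15, against a median of 0.44. These are descriptions over 6 arrays.

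For the other topoisomerase genes few values were to be had. Of 11 further genes in the list of topoisomerases and topoisomerase VI parts, 3 had a probe set with exactly 1 gene named, and 0 of these 3 passed in either comparison with wild type, where 9.68% of all tested probe sets were called with OsTOP6A3 and 14.9% with OsTOP6B. Their median difference was -0.17 with OsTOP6A3 and -0.28 with OsTOP6B. TOP3A encodes topoisomerase 3 alpha, an enzyme that helps resolve recombining DNA. Its deposited intensities were 35.5 and 36.5 in wild type, 57 and 66 with OsTOP6A3, and 63.7 and 35.6 with OsTOP6B. After normalization its differences were 0.28 ± 0.14 with OsTOP6A3 and 0.12 ± 0.14 with OsTOP6B, with limma adjusted p of 0.246 and 0.579. The native partners of topoisomerase VI other than BIN4 had no probe set of their own in the annotation used and were not analysed here.

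AT1G60460 was another gene of that list. Its deposited intensities were 26.5 and 33.5 in wild type, 11 and 25 with OsTOP6A3, and 18.8 and 24 with OsTOP6B. All overexpressor arrays thus lay below wild type, as they did after normalization. A separation from wild type, in either direction, was seen in 61% of all tested probe sets with OsTOP6A3 and in 57.3% with OsTOP6B. The normalized difference of AT1G60460 was -0.67 ± 0.24 with OsTOP6A3 and -0.42 ± 0.24 with OsTOP6B, and neither passed (limma adjusted p = 0.132 and 0.277). AT2G32000 had -0.17 ± 0.18 and -0.28 ± 0.18. GYRB3, annotated as DNA gyrase B3 and added after its values had been seen, had 2 probe sets, with differences of 0.02 and -0.24 for OsTOP6A3 and of 0.10 and -0.20 for OsTOP6B, none of them called.

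Among genes of replication and cell division, 4 of 19 were tested, and AUR2 fell with OsTOP6B. AUR2 encodes an Aurora kinase, a regulator of dividing cells. Its normalized levels were 7.40 and 7.45 in wild type, 6.88 and 7.10 with OsTOP6A3, and 6.81 and 6.94 with OsTOP6B. Its OsTOP6B difference was -0.56 ± 0.13 (limma adjusted p = 0.0324), and 5 of 14 alternatives kept the call. It was lost without any single array, at a limma adjusted p of 0.0529 to 0.128, and on the deposited scale, where the difference was -0.33 (adjusted p = 0.563). With OsTOP6A3 it was -0.43 ± 0.13 and did not pass (adjusted p = 0.0862). PRL, a subunit of the replicative MCM helicase, had 0.15 and 0.30, AUR1 had -0.05 and 0.07, and AUR3 had 0.05 and -0.18, none of them called. The list thus held 1 lower and 0 higher calls with OsTOP6B and none with OsTOP6A3, with medians of -0.06 and 0.0001, beside 14.9% of all tested probe sets called with OsTOP6B, 6.98% as lower, and 9.68% with OsTOP6A3.

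Of 9 endoreduplication genes 2 were tested. TRY, which encodes a small MYB protein known to restrain leaf hair formation, was lower in OsTOP6B overexpressors. Its deposited intensities were 35.3 and 25.6 in wild type, 23.7 and 12.1 with OsTOP6A3, and 19.4 and 11.4 with OsTOP6B. All overexpressor arrays were thus below wild type, also after normalization. Of all tested probe sets, 61% with OsTOP6A3 and 57.3% with OsTOP6B did not overlap with wild type, in either direction. The TRY difference was -0.75 ± 0.18 with OsTOP6B (limma adjusted p = 0.0329). With OsTOP6A3 it was -0.70 ± 0.18 and did not pass (adjusted p = 0.0507), but it did with median scaling (0.0463). The OsTOP6B call was kept by 6 of 14 alternatives. The difference ran from -1.22 at a pseudocount of 1 to -0.34 at 64, the pseudocount weighing on a gene with low intensities. The call was lost, among other settings, at a pseudocount of 1 (limma adjusted p = 0.0612), on the deposited scale (-0.57, adjusted p = 0.226) and with no filter. It was lost without wild-type replicate 1 (limma adjusted p = 0.158), wild-type replicate 2 (0.0544), OsTOP6B replicate 1 (0.0724) or OsTOP6B replicate 2 (0.116). SIM, a cell-cycle inhibitor of leaf hairs, had -0.34 ± 0.13 and -0.35 ± 0.13 and passed in neither comparison (adjusted p = 0.159 and 0.117). The list held 1 lower call with OsTOP6B, where 6.98% of all tested probe sets were called lower, and 0 with OsTOP6A3, where 9.68% were called in either direction, with medians of -0.55 and -0.52 over its 2 tested genes beside -0.02 over all tested probe sets.

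Of 8 DNA damage and repair genes 2 were tested and 0 called, beside the same 9.68% and 14.9% of all tested probe sets. ATLIG4, DNA ligase IV of end joining, had -0.23 ± 0.25 with OsTOP6A3 and -0.14 ± 0.25 with OsTOP6B. AT4G32700 had -0.27 ± 0.19 and -0.53 ± 0.19, the latter with a limma adjusted p of 0.0942. Of 11 genes of meiotic recombination DFO alone, which is needed for forming the meiotic breaks, had a probe set of its own named in the annotation used. Its deposited intensity lay between 2 and 9.3 on the 6 arrays, and DFO fell under the testing limit.

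**Figure D4:**
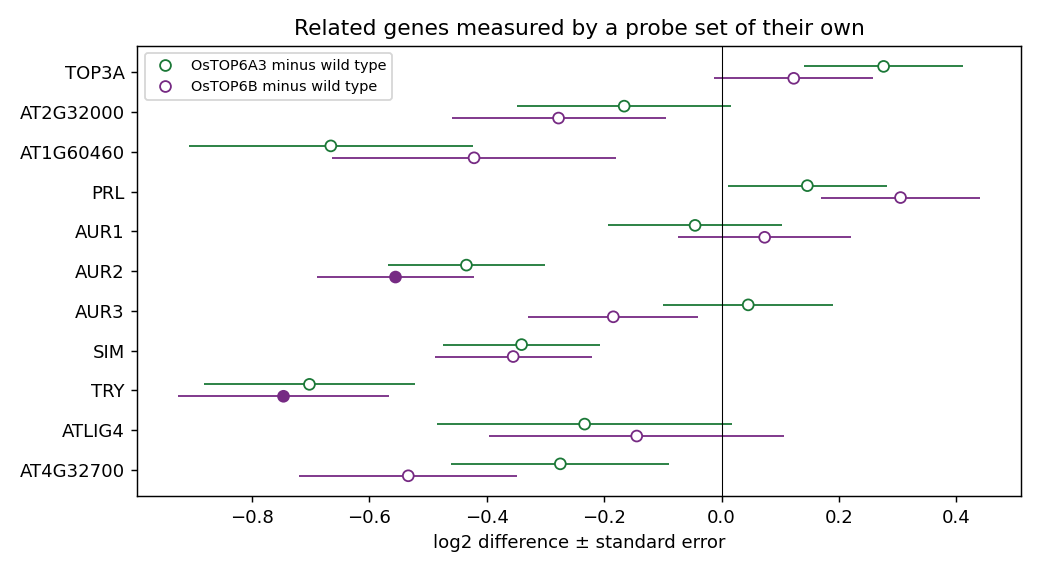
Log2 difference from wild type, with limma's standard error, of the 11 tested genes of the topoisomerase, replication and division, endoreduplication and DNA damage lists. Filled points passed at an adjusted p under 0.05; these are AUR2 and TRY with OsTOP6B.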

How the data were processed

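The authors deposited linear intensity values, 1 for each probe set on each array; for probe summarisation, background correction and scaling the method is not given in the sources used here. Of 22810 probe sets 64 controls were set aside. Column quartiles of log2(intensity + 16) differed by up to 0.54, above the limit of 0.1 for leaving them as deposited, so columns were quantile normalized. All 6 arrays were fitted in limma 3.58.1 (R 4.3.3) with a mean per group, no block, and eBayes without trend (3 residual and 4.61 prior degrees of freedom); the test is two-sided. Standard errors are limma's moderated values, and the number of arrays limits the precision. Of the probe sets 13513 had exactly 1 gene in the array's probe table, 503 several and 8730 none; names were checked against TAIR10.1, used for names only. Columns with no assigned array numbered 0.

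The members, gene lists and tests were chosen with earlier results of these data known. Named were the 4 genes, every listed topoisomerase gene with a probe set of its own, and the 2 nearest profiles per tested member. From the other lists, too, every gene with a probe set of its own was named, called or not. A probe set shared by GYRB1 and GYRB2 was not followed. A gene with several probe sets is given by the one with the highest mean, unless both are stated. Alternatives were pseudocounts of 1 and 64, median scaling, no scaling, no filter, an intensity trend, 2-group fits, replicate number as a block, and leaving out each array. Fit and calls were checked on simulated data with 2-fold changes, larger than the TOPII difference. That simulation did not cover the normalization or the filter on low values.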

Additional observations from a re-analysis of the deposited data

Results flagged for a closer look

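None of the comparisons used the 25S ribosomal RNA control. Its deposited intensity was 315 on OsTOP6B replicate 1, against 23.9 and 53.7 on the wild-type arrays and 46.7 on OsTOP6B replicate 2. The normalized level of TOPII was 6.80 and 6.87 on the OsTOP6B arrays, while that of SPO11-2 was 5.22 and 4.34. The part of this control signal in either gene was not tested.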

How the results depend on the processing

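With replicate numbers as a block the OsTOP6B difference of TOPII stayed at -0.47 and lost its call (limma adjusted p = 0.0681), and calls in the gene lists rose from 0 to 2 with OsTOP6A3, AT1G60460 (adjusted p = 0.0379) and TRY (0.0279); AT1G60460 also passed in the mean of both lines (0.0327). The deviations of same-numbered arrays correlated between groups at -0.05 to 0.02, so the numbers were not taken to pair the arrays. The TOPII call was also lost on the deposited scale (-0.24, adjusted p = 0.696), with median scaling (-0.45, 0.063), a pseudocount of 1 (-0.53, 0.0595), no filter (-0.47, 0.0804), or only the groups compared (-0.47, 0.0938); without single arrays it ran from -0.56 to -0.38. The cause was not tested.

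Among the 4 genes, directions that turned on the deposited scale, none of them in a call, were those of TOPII with OsTOP6A3 (0.21), BIN4 with OsTOP6B (0.16) and, in the mean of both lines, BIN4 (0.027), SPO11-2 (0.044) and ATSPO11-1 (0.058). Among the related genes, AT2G32000 (0.20), AUR1 (0.34), SIM (0.045) and ATLIG4 (0.093) turned there with OsTOP6A3, and ATLIG4 (0.043) with OsTOP6B. BIN4 with OsTOP6B also turned with median scaling (0.012) and a pseudocount of 1 (0.028). Leaving out single arrays gave BIN4 -0.81 to 0.074 with OsTOP6A3, -0.44 to 0.45 with OsTOP6B and -0.62 to 0.26 in the mean of both lines. It gave SPO11-2 -0.32 to 0.45, -0.77 to 0.086 and -0.36 to 0.075, and -0.023 to 0.83 between the lines. ATSPO11-1 ran from -0.59 to 0.20 with OsTOP6A3 and from -0.66 to 0.13 between the lines, and a pseudocount of 1 gave -0.67 and -0.82.

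Over all probe sets 1652 calls with OsTOP6A3 became 1100 with a pseudocount of 1, 1002 with no filter, and 560 to 2017 without single arrays. The 2540 calls with OsTOP6B became 1460 on the deposited scale, 1608 with no filter, and 1054 to 2210 without single arrays. The 2924 calls for the mean of both lines became 1149 to 3048 without single arrays. Between the lines 0 calls became 5 on the deposited scale and 1 with a pseudocount of 64 or an intensity trend. In the gene lists median scaling gave 1 call with OsTOP6A3. The 2 list calls with OsTOP6B became 0 on the deposited scale and with no filter, 1 with a pseudocount of 1, an intensity trend or only the groups compared, and 0 to 1 without single arrays. The 2 for the mean of both lines became 0 on the deposited scale, 1 with no filter, and 0 to 3 without single arrays.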
